A study of Mus musculus with 6 samples.

Results

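The ovarian somatic programme is represented here by 8 genes, *Wnt4*, *Rspo1*, *Fst*, *Foxl2*, *Bmp2*, *Irx3*, *Lhx9* and *Nr0b1*, which were followed on 6 microarrays of mouse male gonads to ask whether the somatic cells of the testis differ when its germ cells lack *Nanos2*. They were found through the RefSeq accession of each probe's design, which gave 9 probes among 41174 different probes on the array, 1 for each gene and 2 for *Lhx9*. The array probes matched to a current gene name numbered 23374 and covered 16535 genes.

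The gonads were taken at E14.5 (embryonic day) from embryos of a mixed ICR and N2 background. The control embryos (*Nanos2*+/-) kept 1 functional copy of *Nanos2*, which encodes an RNA-binding protein made by male germ cells of the fetal testis, so that no wild-type gonads were among the arrays. *Nanos2*-/- embryos carried the null allele, a *LacZ* knock-in, on both chromosomes. *Nanos2*-/-_*Tg*+ embryos had the same null background and also a transgene for 3×FLAG-tagged NANOS2-ΔN10, a NANOS2 protein that lacks its first 10 residues, driven by the *Nanos2* enhancer in germ cells and taken from 1 transgenic line. Each genotype was measured on 2 arrays. Neither the labels nor the methods say whether the 2 RNA samples of a genotype came from separate embryos or litters, so the p-values below measure only the spread between these samples, which may be technical.

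In the fetal ovary, the secreted ligand WNT4 and the secreted protein RSPO1 act together to keep β-catenin signalling active in the supporting cells, and the activin-binding protein follistatin, encoded by *Fst*, lies downstream of them. FOXL2, a forkhead transcription factor, marks the granulosa lineage, and BMP2 and IRX3 are further products of the ovarian soma. *Lhx9* and *Nr0b1* belong to the early gonad of both sexes: LHX9 is a LIM homeobox factor needed for the gonad to form, and the orphan nuclear receptor NR0B1 (DAX1) is also made in testicular cells. In the testis the male pathway led by SOX9 normally holds the ovarian genes down, and the fetal ovary is where germ cells enter meiosis at this age.

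Array values are fluorescence signals of the scanner, scaled so that every array had the same median and given as log2, so a difference of 1 is a 2-fold change. A probe was called well above background when the scanner software flagged its spot so. A probe entered the test if both replicates of any genotype met this, as did 26712 probes of 12983 named genes. Changes were fitted with limma over the 6 arrays, and a probe was called changed at a Benjamini-Hochberg adjusted p below 0.05 over all tested probes together with at least a 2-fold change. The median signals before scaling were 66.2 to 96.6, and 64.1 to 66.7% of probes were well above background. Both *Nanos2*+/- arrays came from 1 slide and scan and the other 4 arrays from another, so in every comparison with *Nanos2*+/- the genotype and the slide cannot be told apart, whereas *Nanos2*-/-_*Tg*+ and *Nanos2*-/- were compared within 1 slide. The 2 *Nanos2*+/- arrays also lay further apart than the replicates of the other genotypes, with a median difference over the tested probes of 0.33, against 0.20 between the *Nanos2*-/- replicates and 0.18 between the *Nanos2*-/-_*Tg*+ replicates.

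The arrays matched their labels in the targeted gene. *Nanos2* stood at 9.42 and 10.78 in *Nanos2*+/-, was under the background limit in both *Nanos2*-/- gonads, and reached 13.28 and 14.25 in *Nanos2*-/-_*Tg*+. Since the same null background without the transgene was under the limit, the probe reads the transgene in *Nanos2*-/-_*Tg*+. Relative to *Nanos2*+/-, *Nanos2*-/- gonads had at least 89.7-fold less *Nanos2* signal (adjusted p = 0.00198), measured against the lowest signal well above background. *Stra8*, which germ cells need to begin meiosis, had values of 10.19 and 11.48 in *Nanos2*+/-, 12.46 and 13.44 in *Nanos2*-/- gonads and 14.48 and 13.04 in *Nanos2*-/-_*Tg*+ gonads. Its groups did not overlap between *Nanos2*+/- and the other genotypes, but its changes of 2.11 ± 0.585 (SE) and 2.93 ± 0.585 did not pass the test (adjusted p = 0.33 and 0.138). The tissue read as testis: all 14 genes of a Sertoli cell list were tested, with *Sox9* at 11.18 to 11.44 and *Amh* at 11.36 to 11.82 over the 6 arrays.

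None of the ovarian programme genes was called changed in any of the 3 comparisons. In the male gonads, 6 of the 8 genes (*Wnt4*, *Rspo1*, *Fst*, *Bmp2*, *Lhx9* and *Nr0b1*) were well above background on all 6 arrays and were tested, while *Foxl2* and *Irx3* were not well above background on any. The pair of tested genes that lay furthest from *Nanos2*+/- went opposite ways: *Rspo1* signal was higher and *Fst* signal lower in both *Nanos2*-null genotypes. By their brightest probe, the other 4 tested genes differed by at most 0.29 between any 2 genotypes, while the second *Lhx9* probe differed by up to 0.47. Over the 6 tested genes, 1 gene (*Fst*) had an unadjusted p below 0.05 in *Nanos2*-/- against *Nanos2*+/-, where 9.08% of all tested probes did, and 2 (*Fst* and *Rspo1*) in *Nanos2*-/-_*Tg*+ against *Nanos2*+/-, where 11.6% did. No member had one in *Nanos2*-/-_*Tg*+ against *Nanos2*-/-, where 2.74% did. The methods' own test, unadjusted with a 2-fold limit, could call none of the 6, since none differed by 2-fold in any comparison. Its lack of calls therefore adds nothing to the result above. In *Nanos2*-/- against *Nanos2*+/-, *Fst* was under the p limit of that test, and only the fold limit stopped a call.

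**Figure D1:**
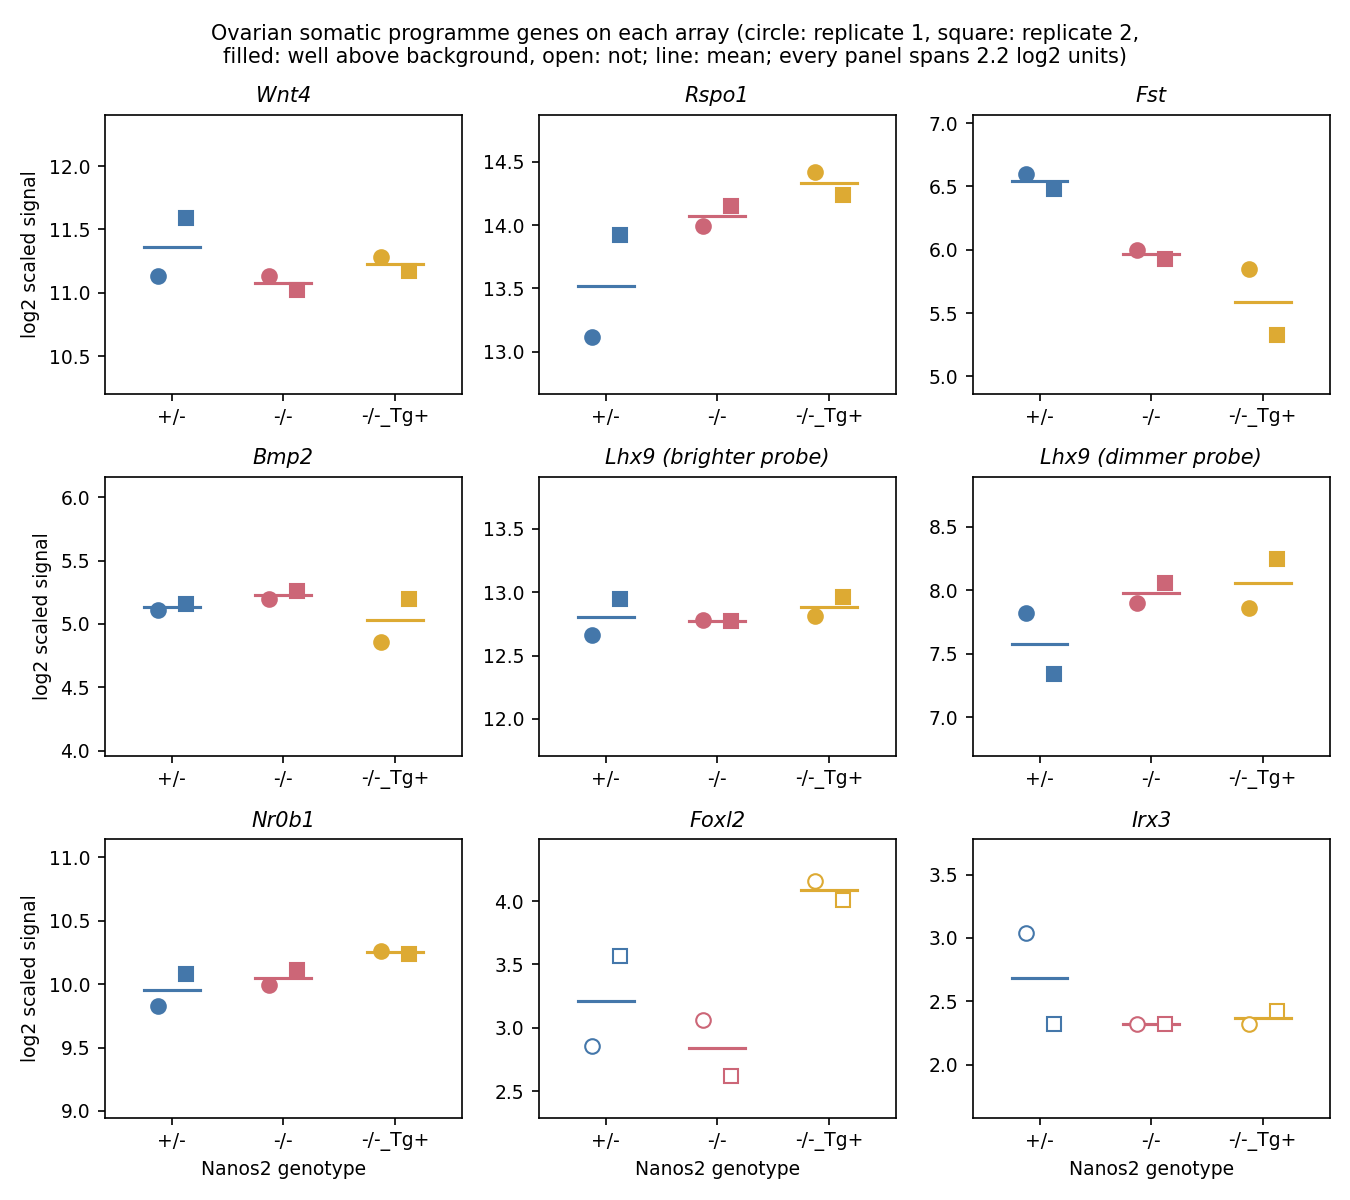
Log2 scaled signal (vertical axis, every panel spanning 2.2 log2 units) of each probe of the 8 genes by *Nanos2* genotype, with replicate 1 as a circle, replicate 2 as a square, the genotype mean as a line, and open symbols where the probe was not well above background. *Fst* is lower in the null genotypes, from *Nanos2*+/- (6.60 and 6.48) down to *Nanos2*-/-_*Tg*+ (5.85 and 5.33), the 2 *Nanos2*+/- values of *Rspo1* (13.12 and 13.92) are far apart, and all *Foxl2* and *Irx3* symbols are open.

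*Wnt4* (probe A_51_P130475), the ligand, read 11.13 and 11.59 on the *Nanos2*+/- arrays, 11.13 and 11.02 on the *Nanos2*-/- arrays, and 11.28 and 11.17 on the *Nanos2*-/-_*Tg*+ arrays. The highest value was that of *Nanos2*+/- replicate 2, and the other 5 arrays lay between 11.02 and 11.28. The change was -0.29 in *Nanos2*-/- relative to *Nanos2*+/- (95% interval -0.79 to 0.21, adjusted p = 0.76) and -0.13 in *Nanos2*-/-_*Tg*+ relative to *Nanos2*+/- (-0.63 to 0.37, adjusted p = 0.877). Within the slide, *Nanos2*-/-_*Tg*+ stood 0.16 above *Nanos2*-/- (-0.34 to 0.66, adjusted p = 1). A 2-fold difference in either direction thus lay outside the interval of *Wnt4* in all 3 comparisons. Against *Nanos2*+/-, that interval does not cover a shift between slides. The sizes turned on the *Nanos2*+/- arrays: the first 2 differences were -0.52 and -0.36 without *Nanos2*+/- replicate 1, and -0.06 and 0.10 without *Nanos2*+/- replicate 2.

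*Rspo1* (A_51_P142421), whose product amplifies Wnt signals at the cell surface, read 13.12 and 13.92 in *Nanos2*+/-, 13.99 and 14.15 in *Nanos2*-/- gonads and 14.42 and 14.24 in *Nanos2*-/-_*Tg*+ gonads. The genotypes did not overlap, but the gap between the higher *Nanos2*+/- array and the lower *Nanos2*-/- array was far smaller than the 0.80 that separated the 2 *Nanos2*+/- arrays, the widest replicate difference of any tested member. The change was 0.55 ± 0.275 in *Nanos2*-/- relative to *Nanos2*+/- (95% interval -0.09 to 1.19, adjusted p = 0.621), a size reached by 10.4% of all tested probes. In *Nanos2*-/-_*Tg*+ it was 0.81 ± 0.275 relative to *Nanos2*+/- (0.17 to 1.45, unadjusted p = 0.0199, adjusted p = 0.31), a size reached by 5.48% of tested probes. *Nanos2*-/-_*Tg*+ exceeded *Nanos2*-/- by 0.26 (-0.38 to 0.90, adjusted p = 1). Without *Nanos2*+/- replicate 1, the array with the low value, the first 2 differences were 0.15 and 0.41, and without *Nanos2*+/- replicate 2 they were 0.95 and 1.21.

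*Fst* (A_51_P381821), the activin antagonist that lies downstream of *Wnt4* in the ovary, read 6.60 and 6.48 in *Nanos2*+/-, 6.0 and 5.93 in *Nanos2*-/- gonads and 5.85 and 5.33 in *Nanos2*-/-_*Tg*+ gonads. These correspond to scaled signals of 97.2 and 89.4, then 64.1 and 61.0, then 57.8 and 40.3. Every *Nanos2*-/- array was below both *Nanos2*+/- arrays, and both *Nanos2*-/-_*Tg*+ arrays were below both *Nanos2*-/- arrays. The difference from *Nanos2*+/- was -0.58 ± 0.222 in *Nanos2*-/- (95% interval -1.09 to -0.06, unadjusted p = 0.0334, adjusted p = 0.499), of a size reached by 9.38% of tested probes. In *Nanos2*-/-_*Tg*+ it was -0.95 ± 0.222 (-1.47 to -0.43, unadjusted p = 0.00308, adjusted p = 0.178), of a size reached by 3.77% of tested probes. Within the slide, *Nanos2*-/-_*Tg*+ differed from *Nanos2*-/- by -0.37 (-0.89 to 0.14, adjusted p = 1), and this was -0.63 without *Nanos2*-/-_*Tg*+ replicate 1 and -0.11 without *Nanos2*-/-_*Tg*+ replicate 2. The *Fst* replicates differed by 0.12 for *Nanos2*+/-, 0.07 for *Nanos2*-/- and 0.52 for *Nanos2*-/-_*Tg*+, so that the widest spread was in the genotype with the lowest values.

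*Bmp2* (A_51_P185229), a ligand of the TGF-β family, was printed as 10 spots on each array, so that its error within an array could be read directly. All 10 spots were well above background on every array, and their standard deviation within an array was 0.16 to 0.29 on the log2 scale. The means of the spots were 5.11 and 5.16 in *Nanos2*+/-, 5.20 and 5.26 in *Nanos2*-/- gonads and 4.86 and 5.20 in *Nanos2*-/-_*Tg*+ gonads. The lowest array was *Nanos2*-/-_*Tg*+ replicate 1, where the spots ran from 23.6 to 33.0 in signal, against 32.2 to 46.0 on the other array of that genotype. The changes of 0.09 (95% interval -0.36 to 0.55) and -0.10 (-0.56 to 0.35) from *Nanos2*+/-, and of -0.20 (-0.65 to 0.26) within the slide, were all smaller than this 0.34 between replicates (adjusted p = 0.933, 0.896 and 1).

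*Lhx9*, the LIM homeobox gene of the early gonad, was read by 2 probes designed to different RefSeq transcripts. The brighter one (A_51_P330481) gave 12.66 and 12.95 in *Nanos2*+/-, 12.78 and 12.77 in *Nanos2*-/- gonads and 12.81 and 12.96 in *Nanos2*-/-_*Tg*+ gonads. The *Nanos2*-/- values lay between those of *Nanos2*+/-, and the 3 changes were -0.03 (95% interval -0.48 to 0.42), 0.08 (-0.37 to 0.53) and 0.11 (-0.34 to 0.56). The dimmer probe (A_52_P643919) gave 7.82 and 7.34 in *Nanos2*+/-, 7.90 and 8.06 in *Nanos2*-/- gonads and 7.86 and 8.25 in *Nanos2*-/-_*Tg*+ gonads. It was higher in both null genotypes, by 0.40 (-0.16 to 0.96, adjusted p = 0.703) and 0.47 (-0.09 to 1.03, adjusted p = 0.508), but its *Nanos2*+/- replicates differed by 0.49. The 2 probes thus differed in sign for *Nanos2*-/- against *Nanos2*+/-, and neither change passed the test.

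*Nr0b1* (A_51_P106455), the X-linked nuclear receptor gene, read 9.83 and 10.08 in *Nanos2*+/-, 9.99 and 10.11 in *Nanos2*-/- gonads and 10.26 and 10.24 in *Nanos2*-/-_*Tg*+ gonads. The *Nanos2*-/-_*Tg*+ arrays were the highest, while *Nanos2*+/- and *Nanos2*-/- overlapped. The change from *Nanos2*+/- was 0.09 in *Nanos2*-/- (95% interval -0.34 to 0.53, adjusted p = 0.929) and 0.29 in *Nanos2*-/-_*Tg*+ (-0.14 to 0.73, adjusted p = 0.612). Within the slide the difference was 0.20 (-0.24 to 0.64, adjusted p = 1).

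*Foxl2* (A_51_P344790), the defining transcription factor of granulosa cells, was not well above background on any array and was not tested. Its log2 signals were 2.86 and 3.57 in *Nanos2*+/-, 3.06 and 2.62 in *Nanos2*-/- gonads and 4.16 and 4.01 in *Nanos2*-/-_*Tg*+ gonads. The 2 *Nanos2*-/-_*Tg*+ arrays were the highest and did not overlap with the others. The scanner flagged the spot as positive on all 6 arrays, with an error of its own of 24.5 and 27.6% of the signal on the *Nanos2*-/-_*Tg*+ arrays and 37.2 to 65.1% on the rest. Both *Nanos2*-/-_*Tg*+ values lay above the lowest signal that counted as well above background for any probe on the same array (3.74 and 3.84), since the flag is set spot by spot. With every probe entered in the fit, *Foxl2* was again not called in *Nanos2*-/-_*Tg*+ against *Nanos2*-/- (unadjusted p = 0.0232, adjusted p = 1) or against *Nanos2*+/- (adjusted p = 0.588). No fold is given, because both sides were under the background limit.

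*Irx3* (A_51_P518757), an Iroquois homeobox gene, had 3.04 and 2.32 in *Nanos2*+/-, 2.32 and 2.32 in *Nanos2*-/- gonads and 2.32 and 2.42 in *Nanos2*-/-_*Tg*+ gonads, where 2.32 is the floor that replaced scaled signals under 5. It stood above the floor on 2 of the 6 arrays and had no measurable order among the genotypes. In these bulk gonads, fewer cells of a type and less RNA per cell cannot be told apart, and neither *Foxl2* nor *Irx3* being under the background limit shows that no cell made them.

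**Figure D2:**
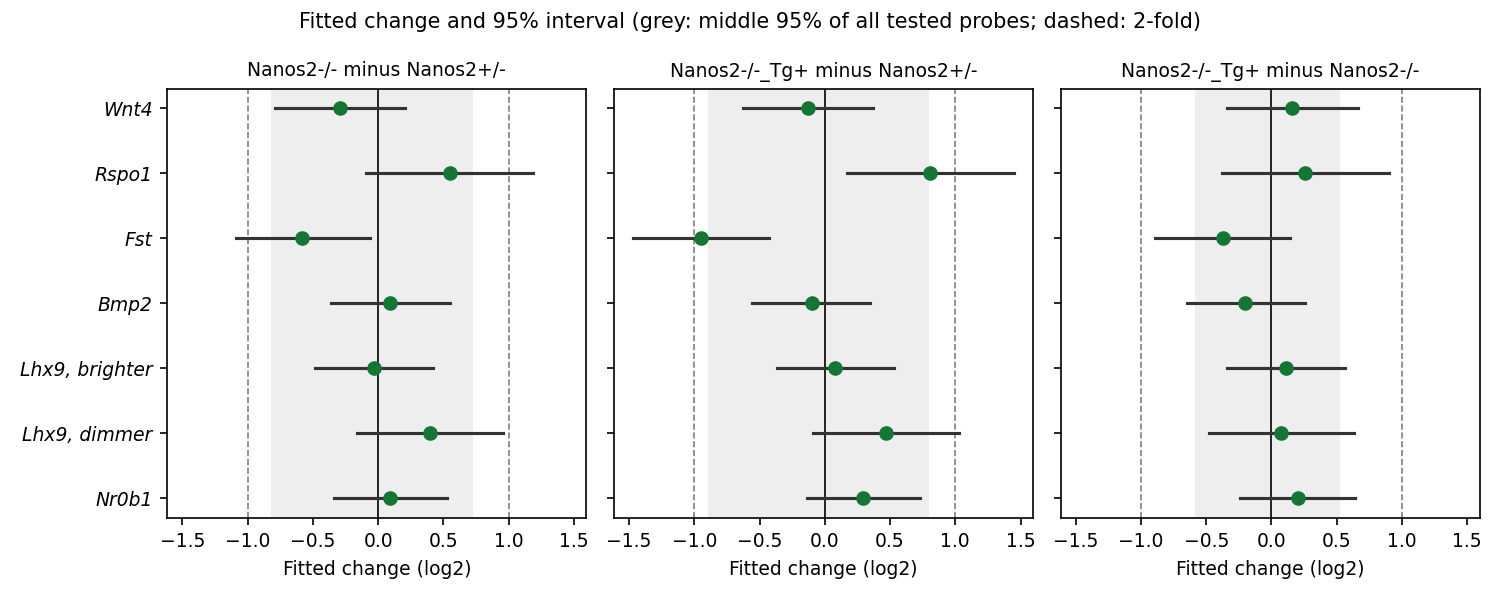
Fitted log2 change (points) and its 95% interval (lines) of the 7 tested probes in the 3 comparisons, with the middle 95% of all tested probes in grey and a 2-fold change dashed. The *Fst* interval lies below 0 in both comparisons with *Nanos2*+/- (-1.09 to -0.06 and -1.47 to -0.43), and within the slide every interval includes 0 and stays inside 2-fold.

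The intervals were set beside a 2-fold change. They reflect only the spread between samples, which may be technical. Against *Nanos2*+/- they do not cover a shift between slides, and none covers shifts from the processing, given below. They therefore do not bound the effect of genotype. In *Nanos2*-/-_*Tg*+ against *Nanos2*-/-, the comparison within 1 slide, the 95% intervals of all 6 tested genes stayed within a 2-fold change either way, as they did for 86.2% of all tested probes. In *Nanos2*-/- against *Nanos2*+/-, those of 4 of the 6 did (80.2% of all tested probes), and in *Nanos2*-/-_*Tg*+ against *Nanos2*+/- again those of 4 (77.5%). These counts use the brightest probe of each gene. The exceptions were *Rspo1* and *Fst* both times, for which a 2-fold change was neither shown nor outside the interval. The dimmer *Lhx9* probe also had an interval that passed 2-fold in *Nanos2*-/-_*Tg*+ against *Nanos2*+/- (-0.09 to 1.03).

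As a set, the members had no common direction relative to *Nanos2*+/-. In *Nanos2*-/-, 3 were higher and 3 lower, with a median change of 0.03 beside -0.04 over all tested probes. In *Nanos2*-/-_*Tg*+, 3 were again higher and 3 lower, with a median of -0.01 beside -0.01. Within the slide, 4 were higher and 2 lower in *Nanos2*-/-_*Tg*+ than in *Nanos2*-/-, with a median of 0.13 beside 0.03. The 2 comparisons with *Nanos2*+/- share their control arrays.

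The count of called members was read against the whole array. Of all tested probes, 0.0674% (18 probes) were called in *Nanos2*-/- against *Nanos2*+/-, 0.105% (28) in *Nanos2*-/-_*Tg*+ against *Nanos2*+/-, and 0.0187% (5) in *Nanos2*-/-_*Tg*+ against *Nanos2*-/-, a share against which 0 of 6 does not stand out. Of the 18 and 28 probes, 5 and 8 were higher in the null genotype, while scaling to the 75th percentile gave 0 of 5 and 5 of 10. Arrays of the 2 genotypes did not overlap for 4, 3 and 5 of the 6 tested genes in the same order, where 36.0, 38.9 and 31.4% of all tested probes did not. For *Wnt4* the arrays of *Nanos2*+/- and *Nanos2*-/- did not overlap although the lower *Nanos2*+/- array and the higher *Nanos2*-/- array both round to 11.13. With 2 arrays against 2, an exact permutation test cannot give a p below 0.333.

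The members also differed in how they varied over the 6 arrays, which is given as a description because the arrays share genotypes and slides. *Rspo1* and *Nr0b1* varied most alike of the 15 pairs (Pearson r = 0.93, n = 6 arrays), and *Fst* ran opposite to both (r = -0.76 and -0.78). *Wnt4* followed neither *Rspo1* (r = 0.08) nor *Fst* (r = 0.34) closely. Among 12452 other genes well above background on every array, the gene most like *Wnt4* was *Fbxw4* (r = 0.991), that most like *Rspo1* was *Mc3r* (0.998), and that most like *Fst* was *Abhd6* (0.996). The closest genes to *Bmp2*, *Lhx9* and *Nr0b1* were *Asgr1* (0.965), *Smtn* (0.995) and *Pcmtd2* (0.997). With 6 arrays such values are common, since 65 to 160 genes exceeded r = 0.95 with each of these members except *Bmp2*, for which 2 did.

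Other genes of the ovarian soma were counted in the same way. Of 12 listed, 9 were tested and none was called in any comparison, with median changes of -0.07, -0.04 and 0.08 and 3, 2 and 1 genes at an unadjusted limma p below 0.05. Of all tested probes, 9.08, 11.6 and 2.74% had such a p, the shares to set beside this count and those of the lists below. The largest differences from *Nanos2*+/- among the 9 were those of *Irx2*, an Iroquois gene related to *Irx3*. It read 6.27 and 6.59 in *Nanos2*+/-, 7.51 and 7.21 in *Nanos2*-/- gonads and 8.13 and 7.70 in *Nanos2*-/-_*Tg*+ gonads, with both null genotypes above *Nanos2*+/- and *Nanos2*-/-_*Tg*+ above *Nanos2*-/-. Relative to *Nanos2*+/-, its difference was 0.93 ± 0.235 for *Nanos2*-/- (adjusted p = 0.276) and 1.48 ± 0.235 for *Nanos2*-/-_*Tg*+ (adjusted p = 0.0833), and 0.55 within the slide (adjusted p = 1). *Gng13*, a G protein subunit gene, differed by 0.80 and 0.53 from *Nanos2*+/-, *Hsd17b1*, which encodes a steroid-converting enzyme, by -0.60 in *Nanos2*-/-, and *Cdkn1b*, a cell cycle inhibitor gene, by -0.51 in *Nanos2*-/-_*Tg*+. Within the slide the largest difference was that of *Hsd17b1* at 0.56, next to *Irx2*, followed by the transcription factor gene *Runx1* at -0.30. *Irx1*, *Irx5* and the aromatase gene *Cyp19a1* were not tested, *Irx1* and *Irx5* because they were not well above background on any array and *Cyp19a1* because it was so on 1 array at most.

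The Wnt and R-spondin pathway was followed through 30 further genes, of which 26 were tested and none was called. The median changes were -0.06 and 0.05 relative to *Nanos2*+/- and 0.09 within the slide, and 2, 5 and 0 genes had an unadjusted p below 0.05. *Sfrp2*, a secreted Wnt-binding protein gene, read 9.65 and 10.50 in *Nanos2*+/-, 10.65 and 11.20 in *Nanos2*-/- gonads and 11.16 and 11.20 in *Nanos2*-/-_*Tg*+ gonads. *Sp5*, a transcription factor gene that responds to Wnt, read 9.56 and 10.92, then 10.79 and 11.28, then 11.06 and 11.62. *Lef1*, which encodes a DNA-binding partner of β-catenin, read 9.82 and 10.06, then 9.36 and 9.43, then 9.25 and 9.24. The first 2 were higher and the third lower in the null genotypes, and as for *Rspo1* the *Nanos2*+/- replicates of *Sfrp2* and *Sp5* lay far apart, while those of *Lef1* did not. The changes from *Nanos2*+/- were 0.85 and 1.11 for *Sfrp2* (adjusted p = 0.473 and 0.238), 0.79 and 1.10 for *Sp5* (0.662 and 0.388), and -0.54 and -0.69 for *Lef1* (0.424 and 0.21). Within the slide the largest differences were 0.31 for *Sp5*, -0.26 for the Wnt inhibitor gene *Dkk1* and 0.26 for *Sfrp2*. Of the other R-spondins, *Rspo2* was 0.47 and 0.45 higher than in *Nanos2*+/- (adjusted p = 0.615 and 0.515), and *Rspo3* was not well above background on any array.

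**Figure D3:**
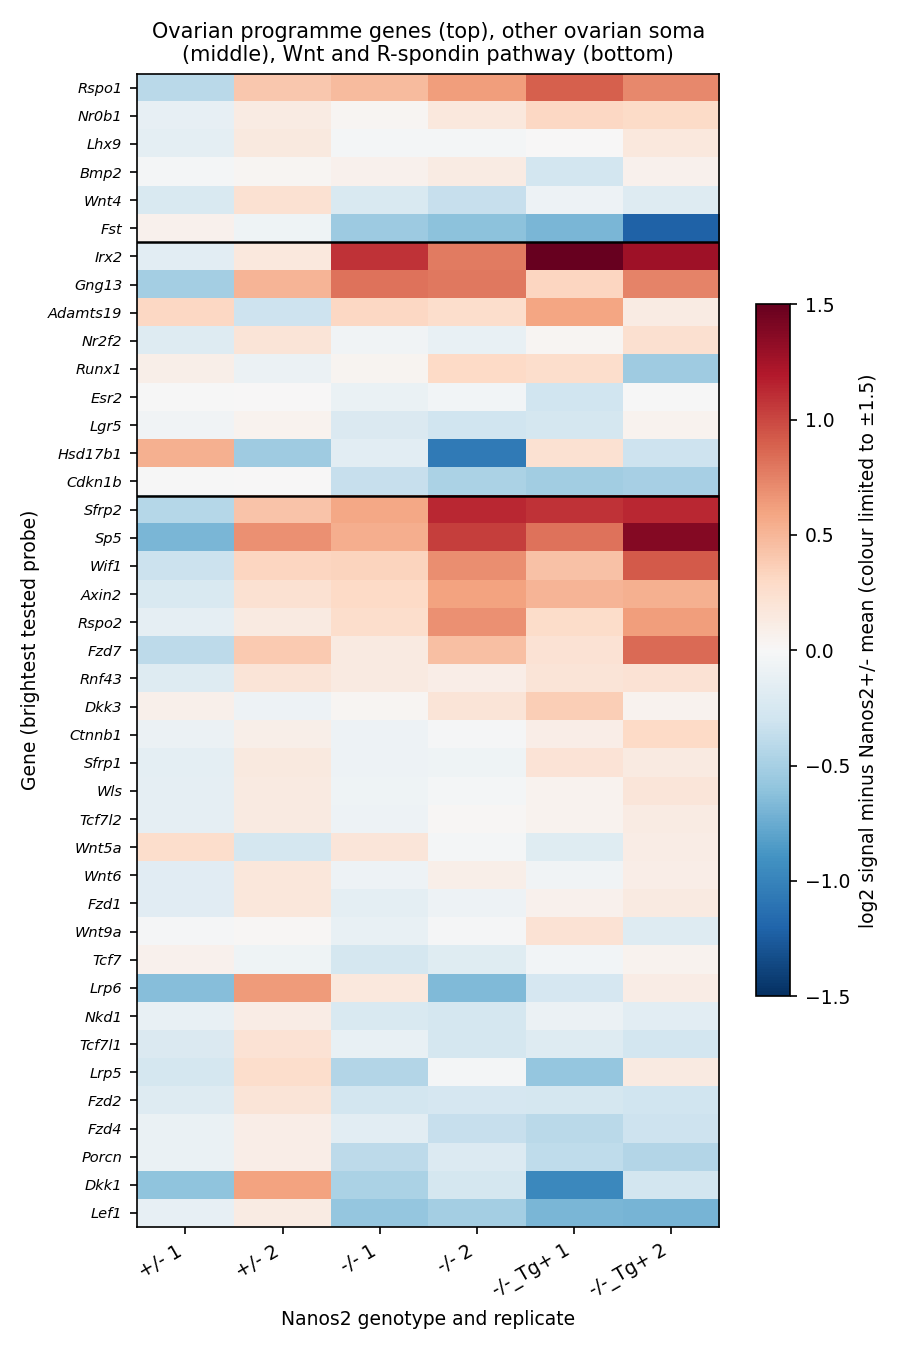
Log2 signal of each tested gene on each array, as the difference from the mean of the 2 *Nanos2*+/- arrays (red higher, blue lower, colour limited to 1.5), for 6 ovarian programme genes, 9 other genes of the ovarian soma and 26 genes of the Wnt and R-spondin pathway, ordered within each block by the mean of the last 4 arrays. *Rspo1*, *Irx2*, *Sfrp2* and *Sp5* are among the red rows, *Fst* and *Lef1* among the blue ones, and the first 2 columns of *Rspo1*, *Sfrp2* and *Sp5* differ in colour although they share a genotype.

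Follistatin and BMP2 act on activin and BMP signalling, of which 28 further genes were listed and 27 tested, again with none called. The medians were -0.02, 0.03 and 0.07, and 0, 1 and 0 genes had an unadjusted p below 0.05. *Inhba*, which encodes an activin subunit and thus a partner of follistatin, stood at 12.86 and 12.67 in *Nanos2*+/-, 12.61 and 12.36 in *Nanos2*-/- gonads and 12.55 and 12.16 in *Nanos2*-/-_*Tg*+ gonads. Its change in *Nanos2*-/-_*Tg*+ was -0.41 (adjusted p = 0.525), one of the 3 largest of the list there beside *Msx1* at 0.79 (adjusted p = 0.281) and *Inha* at -0.33. *Bmpr1b* at 0.33 had the same size as *Inha* after rounding. *Msx1* and *Msx2*, homeobox genes that respond to BMP, differed from *Nanos2*+/- in opposite directions in *Nanos2*-/-, by 0.43 and -0.64 (adjusted p = 0.688 and 0.645), and *Acvr1b*, an activin receptor gene, by -0.45. Within the slide *Acvr1b*, *Id2* and *Msx1* stood 0.62, 0.38 and 0.36 above *Nanos2*-/- (adjusted p = 1 for each), and *Msx2* also 0.36. *Acvr1b* was dim, at 3.96 and 3.21 in *Nanos2*-/- gonads and 4.51 and 3.89 in *Nanos2*-/-_*Tg*+ gonads, which overlapped. The 3.21 lay under the lowest signal well above background on its array (3.76), and both *Acvr1b* differences leaned on it.

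The genes that form the gonad in both sexes, to which *Lhx9* is related, numbered 12, of which 11 were tested and none was called, with medians of -0.09, -0.13 and 0.10 and 1, 2 and 0 genes at an unadjusted p below 0.05. *Six4* and *Emx2*, homeobox genes of the early gonad, exceeded *Nanos2*+/- by 0.63 and 0.54 for *Nanos2*-/- and by 0.52 and 0.60 for *Nanos2*-/-_*Tg*+ (adjusted p between 0.404 and 0.575). *Zfpm2* and *Igf1r* each differed by -0.46 in *Nanos2*-/-, and within the slide *Zfpm2* and *Tcf21* differed by 0.30 and 0.27.

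Markers of the cells that surround or share the gonad were set beside these values. None was called in any comparison. An unadjusted p below 0.05 was found, in the same order of comparisons, for 1, 1 and 0 Sertoli cell, 1, 1 and 0 germ cell, 5, 6 and 0 meiosis, 2, 2 and 1 mesonephros, 1, 0 and 0 endothelial and 0, 0 and 1 erythroid genes, and for 0 Leydig cell and macrophage genes. The Sertoli cell genes had medians of -0.07, -0.01 and 0.09 over 14 tested genes, and the largest differences were those of *Dmrt1*, a gene that germ cells also express. It read 7.44 and 7.32 in *Nanos2*+/-, 8.20 and 9.07 in *Nanos2*-/- gonads and 8.62 and 9.06 in *Nanos2*-/-_*Tg*+ gonads, or 1.25 (adjusted p = 0.266) and 1.46 (adjusted p = 0.147) above *Nanos2*+/-. *Ptgds* and *Cbln4* followed in *Nanos2*-/- (-0.29 and -0.23), *Cbln4* and *Ptch1* in *Nanos2*-/-_*Tg*+ (-0.43 and -0.31), and *Dmrt1*, *Sox8* and *Cbln4* differed by 0.20, 0.20 and -0.19 within the slide. *Ptch1*, the hedgehog receptor gene, was in this list but is not particular to Sertoli cells. The fetal Leydig cell genes, 6 tested, had medians of -0.03, -0.26 and -0.13. *Hsd3b6*, *Cyp17a1* and *Lhcgr* differed by 0.38, -0.26 and 0.23 in *Nanos2*-/-, *Cyp17a1*, *Lhcgr* and *Star* by -0.39, -0.36 and -0.33 in *Nanos2*-/-_*Tg*+, and *Lhcgr*, *Hsd3b6* and *Cyp17a1* by -0.59, -0.20 and -0.13 within the slide. The *Lhcgr* values of *Nanos2*-/-_*Tg*+ rested on replicate 2, which read 4.65 while replicate 1 read 6.86, above the 6.20 and 6.50 of *Nanos2*-/-, so that the sign of both its differences depended on which array was taken.

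Germ cell genes, 10 tested, had medians of -0.05, 0.13 and 0.17. *Dnd1*, an RNA-binding protein gene of germ cells, was lower in the null genotypes by fitted values of -0.81 and -0.82 (adjusted p = 0.257 and 0.176). *Nanog* and *Nanos3* were at 0.76 and 0.52 in *Nanos2*-/-, *Nanos3* and *Dazl* at 0.75 and 0.45 in *Nanos2*-/-_*Tg*+, and *Nanog*, *Mael* and *Pou5f1* at -0.61, 0.39 and 0.24 within the slide. The genotypes overlapped for all of these except *Nanos3* in *Nanos2*-/-_*Tg*+ (adjusted p = 0.489) and *Mael*. The *Nanos2*+/- replicates lay far apart for *Nanog* (7.43, 9.05), *Nanos3* (9.82, 10.96) and *Dazl* (12.8, 13.74). The *Pou5f1* difference had an SE of 0.835. Of the meiosis genes, 17 were tested, with medians of 0.20, 0.23 and 0.15. *Sycp1* and *Taf7l* stood 1.13 and 1.08 above *Nanos2*+/- in *Nanos2*-/- (adjusted p = 0.252 and 0.363), and *Taf7l* 1.38 above it in *Nanos2*-/-_*Tg*+ (adjusted p = 0.179). Others were lower: *Tex12* by fitted values of -0.87 and -0.57 (adjusted p = 0.251 and 0.312) and *Stag3* by -0.60 and -0.96 (adjusted p = 0.55 and 0.21) in the same comparisons, both among the genes with an unadjusted p below 0.05. *Dmc1* had fitted differences of 1.24 from *Nanos2*+/- (adjusted p = 0.516) and 1.44 within the slide (adjusted p = 1), both set by 1 array, since *Nanos2*-/-_*Tg*+ replicate 1 read 6.71 while replicate 2 read 4.33 and the arrays of the other genotypes 4.0 to 4.30. *Stra8* and *Rec8* differed by 0.81 and 0.64 within the slide.

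The mesonephros, the embryonic kidney attached to the gonad, matters here because *Wnt4* is also a gene of the kidney lineage. Of its 8 listed markers 6 were tested, and *Pax2* and *Ret* were not well above background on any array. The summed scaled signal of the 6 was 457 and 1300 in *Nanos2*+/-, 890 and 623 in *Nanos2*-/- gonads and 463 and 693 in *Nanos2*-/-_*Tg*+ gonads, so that *Nanos2*+/- replicate 2, which also had the highest *Wnt4* value, had the highest sum. This was not particular to the mesonephros, as the same array also had the highest sum of the Sertoli, germ cell, Leydig, endothelial and Wnt lists among others, and 71.9% of all tested probes were higher on it than on *Nanos2*+/- replicate 1. The part of any of this in the *Wnt4* value was not tested. The medians were -0.01, -0.19 and -0.16. *Cdh16*, a kidney cadherin gene, differed by -1.83 and -2.48 and *Pax8* by -0.82 and -0.33 from *Nanos2*+/- (adjusted p between 0.249 and 0.686), and *Cdh16*, *Lhx1* and *Pax8* by -0.65, -0.53 and 0.49 within the slide. The *Cdh16* replicates themselves lay far apart, at 6.05 and 8.60 in *Nanos2*+/- and at 7.05 and 3.94 in *Nanos2*-/-. Endothelial genes (5 tested) had medians of -0.15, 0.08 and 0.16, with the largest changes 0.66 and 0.54 for *Pecam1* from *Nanos2*+/- and 0.28 for *Cdh5* within the slide. *Emcn*, *Tek* and *Kdr* made up the rest of the largest endothelial changes, at -0.26 (*Emcn*) and 0.23 (*Tek*) in *Nanos2*-/-, 0.38 (*Tek*) and -0.23 (*Kdr*) in *Nanos2*-/-_*Tg*+, and 0.18 (*Emcn*) and 0.16 (*Tek*) within the slide.

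Markers of macrophages and red blood cells came last. The 3 tested macrophage genes, *Csf1r*, *C1qa* and *Adgre1*, had medians of -0.25, -0.18 and -0.07, and none differed by more than 0.33 between any 2 genotypes. The 4 erythroid genes had medians of -0.14, 0.26 and 0.39, with *Alas2* at -0.24, 0.36 and 0.60, *Hbb-y* at -0.20 in the first comparison and *Hba-x* at 0.15 and 0.24 in the other two. These *Hbb-y* and *Hba-x* differences were far smaller than their replicate spread, and the genotypes overlapped. *Hbb-y* read 13.01 and 14.69 in *Nanos2*+/-, and *Hba-x* 10.51 and 12.05 in *Nanos2*-/-_*Tg*+.

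**Figure D4:**
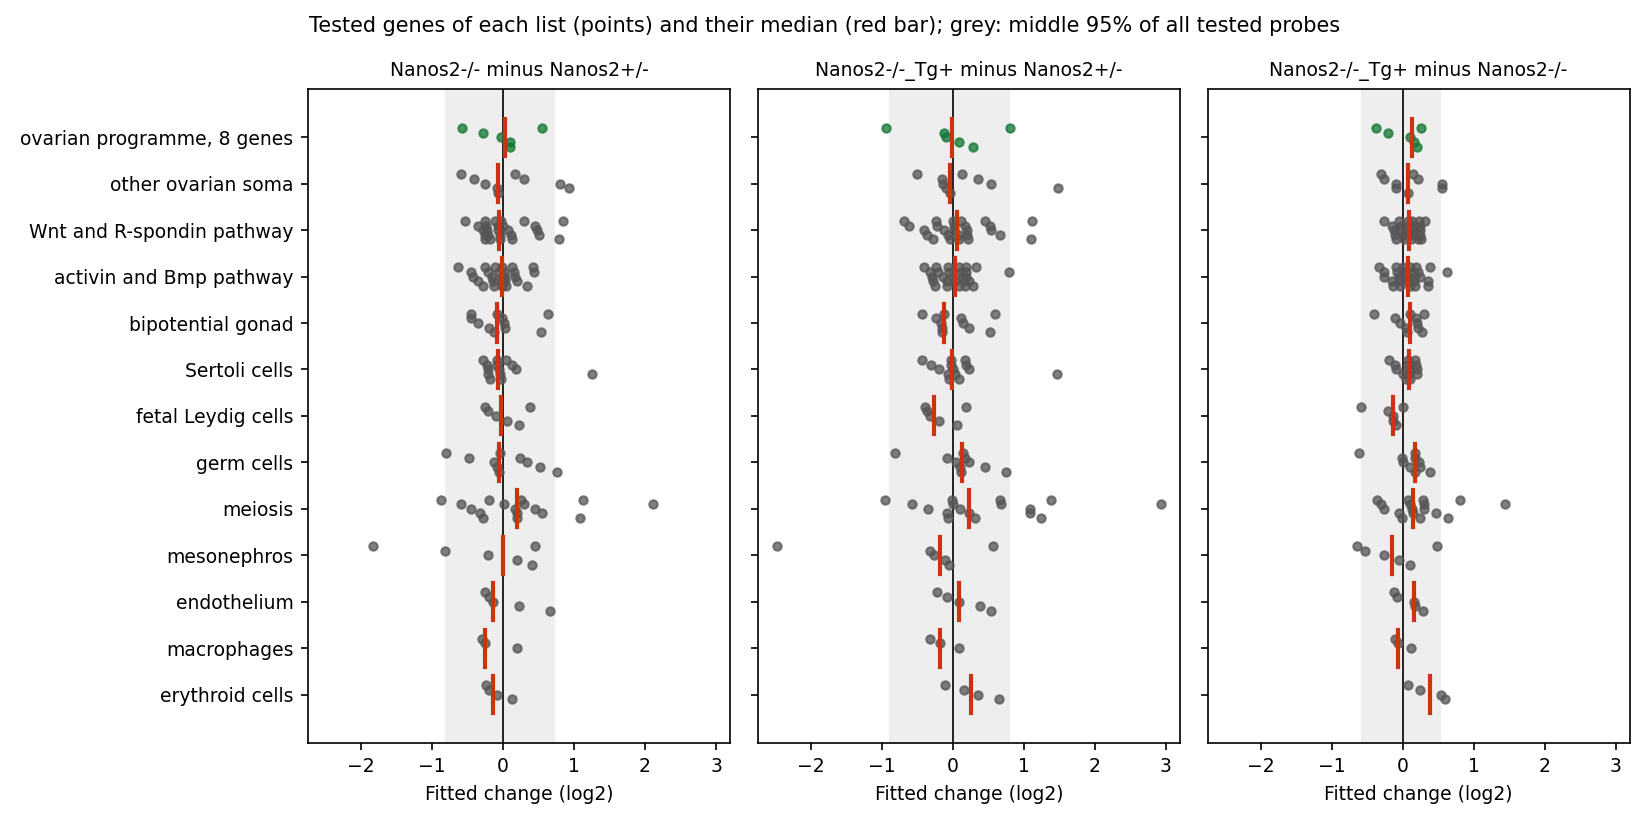
Fitted log2 change of every tested gene (points) of 13 gene lists in the 3 comparisons, with the median of each list as a red bar and the middle 95% of all tested probes in grey. The ovarian programme genes have medians of 0.03, -0.01 and 0.13 and lie inside the grey band (-0.81 to 0.72, -0.89 to 0.79 and -0.58 to 0.52) except *Fst* (-0.95) and *Rspo1* (0.81) in *Nanos2*-/-_*Tg*+ against *Nanos2*+/-, and genes of other lists also lie outside it, among them *Irx2*, *Sfrp2* and *Sp5* beside meiosis, mesonephros and Sertoli list genes.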

How the data were processed

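Total RNA of E14.5 male gonads (0.20 µg per array) had been labelled with Cy3 and hybridized to Agilent whole mouse genome arrays with 1 dye, 2 arrays for each genotype. Genotypes and replicate numbers were taken from the sample labels. The deposited scanner files (Agilent Feature Extraction 9.5 in the submitters' processing notes) give the intensity of 45018 spots per array, 1639 of them controls, which the authors' scanner software had corrected for background. The deposited value table holds the same intensity, within 0.497%.

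Controls and outlier spots were left out, each array was divided to reach the same 50th percentile, values under 5 were set to 5, log2 was taken, and spots of a probe were averaged. The methods' order, floor before scaling, is an alternative, and their centring of each gene does not alter differences. Genes were named through a RefSeq table of assembly GRCm38.p6, whose coordinates were not used, and a gene was read from its brightest tested probe. limma 3.58.1 fitted the 3 comparisons over the 6 arrays (functions lmFit and eBayes, 3 residual and 4.55 prior degrees of freedom) in R 4.3.3 with the data.table package, version 1.17.8. The limma step was tested on simulated data. Figures came from Python 3.11.15 and matplotlib 3.10.9. The number of arrays limits the precision.

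The members and the lists, set from general knowledge, were chosen with earlier results of these data known. Named were all members, *Nanos2*, *Stra8*, from each list every called gene and the 3 largest changes in each comparison, and the gene most like each member. *Rspo2*, *Sox9*, *Amh*, *Tex12*, *Stag3* and the untested genes were named outside this rule, after their values were seen. Some listed genes that the rule would name are not reported here.

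The settings varied were the percentile (75th), quantile normalization in its place, normexp (offset 50, on the median spot signal, since the mean signal was not used here), the floor before scaling, a higher floor (20), a filter for signal well above background on every array or no filter, outlier spots kept, the value table, a replicate block, a fit to the compared arrays alone, the methods' t-test with and without adjustment, no fold limit, the mean of a gene's probes, and each array left out.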

Additional observations from a re-analysis of the deposited data

How the results depend on the processing

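None of the 6 tested members was called under any of the 21 or 22 alternatives run for each comparison. Under the methods' unadjusted test this was fixed beforehand by the 2-fold limit, which no member reached. With normexp, the higher floor and the adjusted t-test, no probe of the whole array was called, so the lack of member calls adds nothing. The largest count of called probes under any alternative was 234 of 26712, with the unadjusted t-test. Against such shares the lack of a member call does not stand out. Of 366 recomputed changes of single members, 355 kept their direction and side of the threshold, and no change between *Nanos2*-/-_*Tg*+ and *Nanos2*-/- turned. Many of these could not turn. The t-tests, the filters, the higher floor, the replicate block and the fit to the compared arrays left every member's difference unchanged. So did leaving out an array of a genotype not compared. Within the slide, the fit to the compared arrays was also counted again under another name. The tally therefore says little about how firm the directions are. The signs that turned were those of small changes. With normexp, which moved the median of all tested probes by 0.56 and 0.52 relative to *Nanos2*+/-, *Wnt4* became 0.64 and 0.73, *Bmp2* -0.22 and *Lhx9* 0.95 in *Nanos2*-/- and the members' medians 0.78 and 0.86. Without a turn of sign, normexp also moved *Rspo1* to 1.49 and 1.71, *Fst* to -0.18 and -0.38, *Nr0b1* to 0.92 and 1.00, and in *Nanos2*-/-_*Tg*+ *Bmp2* to -0.26 and *Lhx9* to 1.07. *Lhx9* in *Nanos2*-/- was also 0.08 after quantile normalization and 0.18 over both probes. With arrays left out, it ran from -0.18 to 0.12 and *Nr0b1* from -0.03 to 0.22, and in *Nanos2*-/-_*Tg*+ relative to *Nanos2*+/- *Wnt4* ran from -0.36 to 0.10, *Bmp2* from -0.27 to 0.07 and *Lhx9* from -0.07 to 0.23, while the members' median ran from -0.10 to 0.12, from -0.10 to 0.16 and, within the slide, from 0.10 to 0.14. Relative to *Nanos2*+/-, *Rspo1* stayed positive and *Fst* negative in all of them, with adjusted p from 0.176 to 1 and 0.233 to 1 in *Nanos2*-/- and from 0.106 to 0.694 and 0.0775 to 0.674 in *Nanos2*-/-_*Tg*+ over the limma fits. *Fst* in *Nanos2*-/-_*Tg*+ had its lowest adjusted p with the replicate number as a block.

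Probes called on the whole array depended on the settings (main 18, 28 and 5 in the order *Nanos2*-/- against *Nanos2*+/-, *Nanos2*-/-_*Tg*+ against *Nanos2*+/-, and *Nanos2*-/-_*Tg*+ against *Nanos2*-/-). The first 2 counts were 5 and 10 with the 75th percentile or quantile normalization and 45 and 140 with only the arrays compared. All 3 were 1, 5 and 1 for probes well above background on every array, 2, 4 and 0 without a filter (1362 probes at an unadjusted p below 0.05 in the last), and 153, 234 and 40 with the methods' t-test. With limma, normexp gave 0, 0 and 0 (754, 699 and 18 at an unadjusted p below 0.05), and a floor of 20 gave 0, 0 and 0 (2360, 2987 and 598). The methods' t-test after adjustment also gave 0, 0 and 0 (1488, 1721 and 1057). Leaving out each array gave 13 to 47, 21 to 85 and 1 to 29. The cause of these shifts was not tested. With a replicate block the counts were 18, 145 and 4, and no member call changed. What samples with the same replicate number share is not stated, and the differences between replicates correlated by 0.355, 0.313 and 0.259 over the tested probes between genotypes.

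With 2 arrays per genotype and 3 residual degrees of freedom, few changes could be called: 882 probes differed by 2-fold or more in *Nanos2*-/-_*Tg*+ against *Nanos2*+/-, of which 28 were called. The lowest signals well above background were 3.47 to 3.84 on the log2 scale. *Irx3* lay under them on every array. *Foxl2* lay above them on the *Nanos2*-/-_*Tg*+ arrays and was left out by the flag of its spot.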
